A study of Mus musculus with 15 samples.

Results

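The genes described here are 10 regulators and products of the fat, bone and cartilage lineages, taken as a list of names: Pparg, Cebpa, Cebpb, Fabp4 and Lpl for fat, Runx2, Sp7 and Alpl for bone, and Sox9 and Acan for cartilage. They were followed in cultured cardiac colony-forming unit fibroblasts (cCFU-F), stromal cells of the mouse heart that grow into colonies when plated sparsely. Of the 10 genes 9 had a probe set that named that gene alone, out of 19938 genes with such a probe set on the array, and each of the 9 had 1 such probe set. Runx2 had none and was not analysed here.

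All cells came from male C57BL/6 mice aged 12 weeks and were sorted as SCA1+, PDGFRα+ and CD31-. The 15 arrays fell into 5 groups of 3: large colonies without treatment at passage 5 and at passage 15, small colonies without treatment at passage 5, and small colonies treated with PDGF-AB at 50 ng/ml at passage 5 and at passage 15. PDGF-AB is a dimer of the platelet-derived growth factor chains A and B that binds PDGFRα, the receptor on which the cells were sorted. There was no group of untreated small colonies at passage 15, so in every comparison of treated small with untreated large colonies, colony size and PDGF-AB cannot be told apart. The labels describe neither a medium that drives differentiation nor the length of treatment, and they leave unsaid whether replicates were separate cultures or animals. The p-values therefore reflect array-to-array spread, some or all of which may be technical.

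Values are log2 intensities, so a difference of 1 is a doubling of signal. Levels are means ± SD over 3 arrays (n = 3), and differences are given with the SE of a linear model over all 15 arrays and a limma p-value adjusted over 19938 genes, called at 0.05. Probes differ in brightness, so levels are compared between groups and not between genes. The lower quartile of the probe sets was 4.06 to 4.23 on the 15 arrays, and a gene at about that level was close to background, where a fold change says little. The median level over genes was 6.02.

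Stromal cells of this kind are known for forming fat, bone and cartilage cells in culture when given the matching signals. In the fat lineage C/EBPβ acts early and switches on C/EBPα and PPARγ, which then maintain each other and turn on genes of lipid uptake and storage such as Fabp4 and Lpl. In bone RUNX2 acts upstream of SP7, and alkaline phosphatase, the product of Alpl, frees phosphate for mineral. In cartilage SOX9 turns on matrix genes such as Acan.

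The markers measured for the labelled cell type were mostly present. Of 10 stromal markers 9 were measured. Ly6a, which encodes the sorting marker SCA1, was not measured. All 9 lay above the median level in large colonies and 8 in small colonies. The exception was Thy1, at 5.11 to 5.49 in the 3 small-colony groups. Markers of other cells were mostly dim: the endothelial list (11 genes) averaged 4.75 to 5.13 per array with 1 or 2 genes above the median level (Egfl7 and Gpihbp1 over all arrays), and its defining gene Pecam1, which encodes CD31, stood at 4.29 to 4.59 in the 5 groups. The macrophage list (12 genes) averaged 4.70 to 5.11 with 0 to 3 genes above the median. Its bright genes were Lyz2, with group means from 5.35 to 9.14, and Cd14, from 5.30 to 7.16, while Ptprc and Adgre1 were at 4.12 or lower in every group. Of 10 cardiomyocyte markers 2, Tnnt2 and Actc1, lay above the median in each group. Mural markers numbered 3 to 5 of 8 above it, with Rgs5, Cspg4, Notch3 and Mcam above it over all arrays, and Schwann cell markers 0 of 4. The 9 measured cell division genes moved with passage in both kinds of colony, from a mean of 5.75 to 5.89 per array at passage 5 to 8.94 to 9.05 at passage 15 in large colonies, and from 5.76 to 5.89 to 9.19 to 9.29 in treated small ones. They stood at 6.96 to 6.99 in untreated small colonies. The part of division in any difference below was not tested, and in bulk RNA a larger share of cells of a type and more RNA per cell cannot be told apart.

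Starts of Pparg and Alpl are shown because these genes had the largest differences among the 9. In RefSeq (GRCm38.p6) Pparg lies on chromosome 6 from 115360879 to 115490404 and Alpl on chromosome 4 from 137741731 to 137796384. Windows of 250 bases before to 50 after a start were read from RefSeq for 6 of the 10 genes, 9 windows in all, of which Pparg has 3 and Alpl 2. Both strands were searched for TTGCNNAA (the C/EBP core), TGTGGT (RUNX), AGGTCA (a site bound by nuclear receptors such as PPARγ), GGGCGG (SP) and ACAATG (SOX), and matches are in capitals. The first and the last Pparg start and both Alpl starts read as follows, 5′ to 3′ on the gene's strand.
Pparg, first start, chr6:115360894-115361193, + strand: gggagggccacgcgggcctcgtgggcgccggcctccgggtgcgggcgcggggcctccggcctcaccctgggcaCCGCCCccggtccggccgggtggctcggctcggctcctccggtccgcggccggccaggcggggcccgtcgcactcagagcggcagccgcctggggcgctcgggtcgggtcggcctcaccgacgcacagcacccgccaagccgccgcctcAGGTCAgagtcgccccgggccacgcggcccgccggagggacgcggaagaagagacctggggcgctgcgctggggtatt
Pparg, last start, chr6:115421816-115422115, + strand: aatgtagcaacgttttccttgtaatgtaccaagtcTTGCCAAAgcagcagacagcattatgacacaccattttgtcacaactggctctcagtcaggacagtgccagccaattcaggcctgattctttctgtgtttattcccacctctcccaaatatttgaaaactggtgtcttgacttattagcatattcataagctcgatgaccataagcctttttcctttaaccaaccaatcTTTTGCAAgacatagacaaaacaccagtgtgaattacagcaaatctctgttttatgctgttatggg
Alpl, first start, chr4:137796335-137796634, - strand: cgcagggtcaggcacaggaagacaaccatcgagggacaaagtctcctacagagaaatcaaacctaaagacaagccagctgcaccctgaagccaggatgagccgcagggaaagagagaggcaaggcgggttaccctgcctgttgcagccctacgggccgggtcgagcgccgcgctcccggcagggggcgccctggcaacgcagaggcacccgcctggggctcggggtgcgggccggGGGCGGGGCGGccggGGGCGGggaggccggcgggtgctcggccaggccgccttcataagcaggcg
Alpl, second start, chr4:137766426-137766725, - strand: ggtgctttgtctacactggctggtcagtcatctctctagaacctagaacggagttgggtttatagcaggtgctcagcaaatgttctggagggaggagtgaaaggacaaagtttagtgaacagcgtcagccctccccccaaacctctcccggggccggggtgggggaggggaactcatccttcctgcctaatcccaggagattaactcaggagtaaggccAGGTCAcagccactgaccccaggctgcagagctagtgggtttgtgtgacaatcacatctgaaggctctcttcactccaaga

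The windows of Pparg differ in base composition, with 80.3% G or C at the first start and 40.3% at the last. The first holds AGGTCA at 28 bases before the start and an SP match at 177 bases before it. The last holds 2 C/EBP matches, at 215 and at 16 bases before the start. The middle Pparg window, chr6:115362099-115362398, holds AGGTCA at 9 bases before the start and SP matches at 210 and 127. The first Alpl window is 70% G or C and holds 3 SP matches at its start, the first 2 of which overlap, and the second holds AGGTCA at 31 bases before its start. Of 32851 windows of this length in the table, 10.8% hold the C/EBP letters, 16.8% those of RUNX, 16.3% AGGTCA, 35.7% GGGCGG and 12.6% ACAATG. A match describes letters only. The array gives 1 level per gene and does not separate these starts.

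Pparg, the nuclear receptor at the centre of fat cell formation, was highest in large colonies. Its level in untreated large colonies was 8.78, 8.82 and 8.80 in the 3 arrays at passage 5 (8.80 ± 0.0232) and 8.81, 8.82 and 8.79 at passage 15 (8.81 ± 0.0129). The 6 arrays of large colonies overlapped and stood above every array of small colonies. Untreated small colonies read 7.19, 7.07 and 7.03 (7.10 ± 0.0821), and PDGF-AB-treated small colonies 8.07, 8.10 and 8.06 at passage 5 (8.07 ± 0.0203) and 6.65, 6.30 and 6.50 at passage 15 (6.49 ± 0.175). The treated arrays at passage 5 thus lay between those of untreated small and large colonies, and the treated arrays at passage 15 were the lowest of all. From the highest group to the lowest, 3 of the 4 steps passed the test, and the exception was the step between the large-colony groups.

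In untreated colonies at passage 5 Pparg was 3.26-fold higher in large than in small colonies (log2 difference 1.70, SE 0.0728, adjusted p = 8.69e-12). With PDGF-AB at passage 5 it rose 1.97-fold in small colonies (log2 0.97, adjusted p = 3.99e-08). From passage 5 to passage 15 it fell 3.01-fold in treated small colonies (log2 -1.59, adjusted p = 1.77e-11). In large colonies the same interval gave a log2 difference of 0.0040 with a 95% interval of -0.15 to 0.16 (adjusted p = 0.973), so small changes in either direction lay inside it. Against untreated large colonies, treated small colonies were 1.66-fold lower at passage 5 (log2 -0.73, adjusted p = 5.21e-07) and 5.00-fold lower at passage 15 (log2 -2.32, adjusted p = 1.11e-13). These comparisons share arrays and are not independent of each other.

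**Figure D1:**
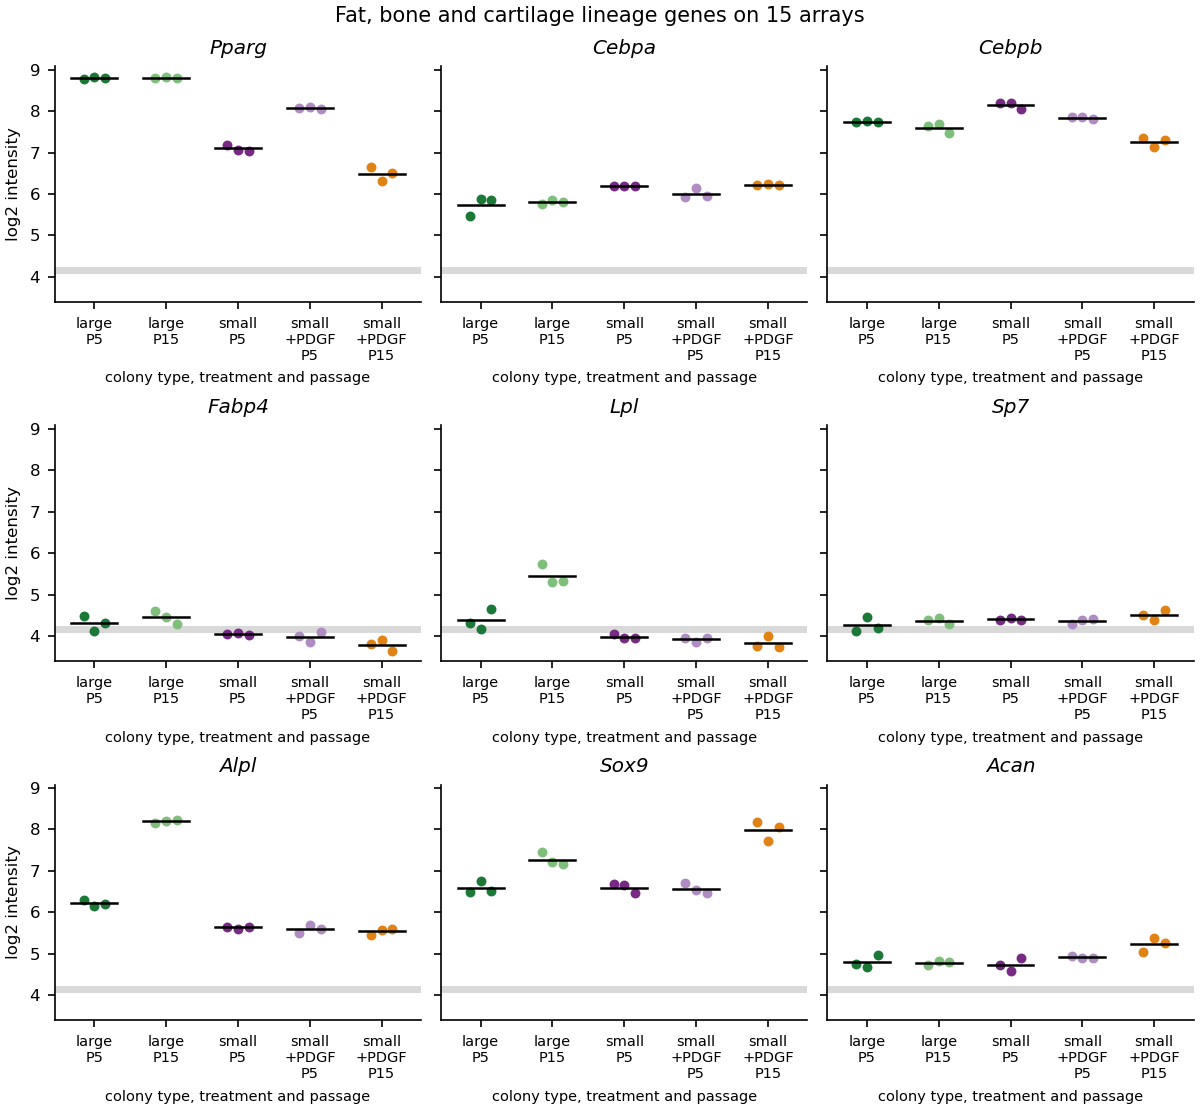
Log2 intensity (vertical axis) of the 9 measured genes in each of the 15 arrays, 1 panel per gene, with points for arrays, black lines for group means and a grey band for the lower quartile of probe sets (4.06 to 4.23). Group means of Pparg run from 6.49 to 8.81, and Alpl stands apart in large colonies at passage 15, at 8.20.

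Cebpb, the early C/EBP factor (chromosome 2, 167688915 to 167690432), followed another order. It was highest in untreated small colonies, at 8.19, 8.20 and 8.05 (8.15 ± 0.0863), and lowest in treated small colonies at passage 15, at 7.36, 7.13 and 7.31 (7.27 ± 0.119). The other groups lay between and close together: 7.86, 7.85 and 7.81 in treated small colonies at passage 5 (7.84 ± 0.0255), 7.75, 7.76 and 7.73 in large colonies at passage 5 (7.75 ± 0.0180), and 7.65, 7.68 and 7.48 in large colonies at passage 15 (7.60 ± 0.106). Neighbours among these middle groups were not told apart by the test. With PDGF-AB at passage 5 Cebpb fell 1.23-fold in small colonies (log2 -0.30, adjusted p = 0.00345), while Pparg rose in the same arrays. Over passages in treated small colonies both fell, Cebpb by 1.49-fold (log2 -0.57, adjusted p = 3.47e-06). It was 1.32-fold lower in large than in small untreated colonies at passage 5 (log2 -0.40, adjusted p = 0.000213). At passage 15 it was lower in treated small than in large colonies (log2 -0.34, adjusted p = 0.000812), as Pparg was.

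Cebpa, the partner of Pparg in mature fat cells (chromosome 7, 35119293 to 35121928), spanned only 0.49 on the log2 scale over the group means. It read 5.46, 5.87 and 5.86 in large colonies at passage 5 (5.73 ± 0.232) and 6.19, 6.20 and 6.18 in untreated small colonies (6.19 ± 0.00743). These groups did not overlap, and Cebpa was 1.37-fold lower in large colonies (log2 -0.46, SE 0.0888, adjusted p = 0.000549), the opposite direction to Pparg. No step between neighbouring groups in the order of Cebpa levels passed the test. In treated small colonies it rose by 0.23 over passages (adjusted p = 0.0472), a call lost with array medians centred (0.131), with cyclic loess (0.104), with all probe sets tested (0.0563), with array weights (0.0656) and without any 1 of 11 of the 15 arrays. At passage 5 it was 0.27 higher in treated small than in large colonies (adjusted p = 0.0255), a call that ended with only the compared arrays in the model (0.12), without large-colony array 1 (a change of 0.13, adjusted p = 0.148) and without treated array 2 (0.130). At passage 15 it was 0.42 higher (adjusted p = 0.000934).

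Fabp4, which encodes a fatty acid carrier of fat cells, was near background in all groups, with group means from 3.79 to 4.45 and single arrays from 3.65 to 4.61 (chromosome 3, 10204342 to 10208616). Its highest arrays were those of large colonies. The test gave 0.26 in large against small untreated colonies at passage 5 (adjusted p = 0.0501, 95% interval 0.050 to 0.47). Treated small minus large colonies came to -0.32 at passage 5 (adjusted p = 0.0152, and 0.0886 without large-colony array 1 or 0.0796 without treated array 2) and to -0.66 at passage 15 (adjusted p = 3.3e-05). No fold is given for Fabp4, since 1 or both groups stood at background in each comparison.

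Lpl encodes lipoprotein lipase, which frees fatty acids from circulating fat (chromosome 8, 68880555 to 68906932). It left background in large colonies: 4.31, 4.16 and 4.64 at passage 5 (4.37 ± 0.246) against 5.73, 5.31 and 5.32 at passage 15 (5.45 ± 0.244). The arrays of these groups did not overlap, and the rise was 1.08 on the log2 scale (SE 0.122, adjusted p = 1.94e-06). Small colonies stayed between 3.73 and 4.05 in all 9 arrays, treated or not. Their 3 group means were not told apart, and every array of large colonies lay above all of them. At passage 15 Lpl was lower in treated small than in large colonies (-1.62, adjusted p = 1.13e-08). At passage 5 the untreated difference was 0.39 (adjusted p = 0.0191), with both groups near background, and it rested on few arrays. Without large-colony array 3 it was 0.25 (adjusted p = 0.12), and the call also ended without small-colony array 2 (0.0556) or 3 (0.0533). Lpl is also made by macrophages. Of the 12 macrophage markers 2 rose and none fell with passage in large colonies, where the list averaged 4.88 to 4.96 per array at passage 5 and 4.97 to 5.01 at passage 15. The rising markers were Cd14 (1.09) and Lyz2 (0.27), and 17.4% of all genes were higher. In treated small against large colonies at passage 15, where Lpl was lower, 3 macrophage markers were higher and 4 lower (29.2% and 24.2% of all genes). The lower ones were Lyz2 (-3.38), Cd14 (-0.86), Csf1r (-0.21) and Cd68 (-0.19). The higher ones, all below the median level over all arrays, were C1qa (0.29), Ptprc (0.26) and Adgre1 (0.21). Csf1r, Cd68 and C1qa were named after their values were seen. The part of these markers in the Lpl results was not tested.

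Pparg, Fabp4 and Lpl all had higher group means in both large-colony groups than in the 3 small-colony groups, with Fabp4 near background throughout. The bone gene Alpl had this order too. The other fat genes did not: Cebpa was lowest in the large-colony groups (5.73 and 5.81 against 6.00 to 6.23), and Cebpb was highest in untreated small colonies (8.15). In large colonies Lpl rose over passages at a Pparg level of 8.80 and 8.81. In small colonies, where PDGF-AB moved Pparg by 0.97 at passage 5, Lpl differed by -0.07 (adjusted p = 0.709) and Fabp4 by -0.07 (adjusted p = 0.653), both within background.

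Alpl, the alkaline phosphatase used as a marker of cells entering the bone lineage, had the widest range of the 9 genes, 2.66 on the log2 scale. Large colonies read 6.29, 6.14 and 6.21 at passage 5 (6.22 ± 0.0749) and 8.16, 8.20 and 8.23 at passage 15 (8.20 ± 0.0341). The gap between them was far wider than the spread within either. Small colonies read 5.66, 5.60 and 5.65 without treatment (5.64 ± 0.0321), 5.50, 5.69 and 5.59 with PDGF-AB at passage 5 (5.59 ± 0.0972), and 5.44, 5.58 and 5.59 at passage 15 (5.54 ± 0.0835). All 9 small-colony arrays overlapped in 1 band below the median gene level, and no step between their groups passed the test.

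In large colonies Alpl rose 3.95-fold over passages (log2 1.98, SE 0.0640, adjusted p = 3.34e-13). At passage 5 it was already 1.50-fold higher in large than in small untreated colonies (log2 0.58, adjusted p = 1.46e-06). Treated small colonies lay 1.54-fold below large ones at passage 5 (log2 -0.62, adjusted p = 7.11e-07) and 6.33-fold below at passage 15 (log2 -2.66, adjusted p = 3.56e-15). The passage change within treated small colonies was -0.06 (adjusted p = 0.508). As shown above, the second Alpl start carries AGGTCA and the first carries SP letters, and the signal cannot be assigned to either. Mural markers also moved in these comparisons. With passage in large colonies 3 of 8 were higher and 3 lower (17.4% and 18.7% of all genes), with Kcnj8 going from 5.08 to 6.61 and Rgs5 from 8.42 to 6.73. In large against small untreated colonies, where Pparg and Alpl were higher, 5 of 8 were higher and 2 lower (18.2% and 18% of all genes), with Rgs5 at 2.92 and Notch3 at -1.03. In treated small against large colonies 3 were higher and 3 lower at passage 5 (14.8% and 20.9% of all genes), with Cspg4 at 1.40 and Rgs5 at -3.71. At passage 15 the counts were 3 and 2 (29.2% and 24.2% of all genes), with Cspg4 at 2.57 and Rgs5 at -1.99. Kcnj8 was named after its values were seen, and the part of mural markers in the Pparg and Alpl results was not tested.

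Sp7, the bone transcription factor also called osterix (chromosome 15, 102356603 to 102367035), showed no such pattern. Its group means ran from 4.25 to 4.51 and its arrays from 4.11 to 4.63, close to background, and none of the 7 comparisons called it (limma, with none of the 7 under an unadjusted p of 0.05). The rise of Alpl in large colonies therefore came with an Sp7 difference of 0.11 (95% interval -0.071 to 0.28, adjusted p = 0.364).

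Sox9, the cartilage transcription factor (chromosome 11, 112782210 to 112787757), rose over passages in both kinds of colony. At passage 5 the 3 groups overlapped: 6.50, 6.75 and 6.52 in large (6.59 ± 0.142), 6.68, 6.65 and 6.46 in untreated small (6.60 ± 0.122), and 6.70, 6.54 and 6.48 in treated small colonies (6.57 ± 0.116). At passage 15 it read 7.45, 7.20 and 7.16 in large (7.27 ± 0.155) and 8.17, 7.72 and 8.06 in treated small colonies (7.99 ± 0.234). Each passage 15 group lay above all 9 arrays of passage 5, and the treated small arrays above the large ones. The rise was 1.61-fold in large colonies (log2 0.68, SE 0.113, adjusted p = 0.00012) and 2.66-fold in treated small colonies (log2 1.41, adjusted p = 2.26e-08). At passage 15 Sox9 was 1.64-fold higher in treated small than in large colonies (log2 0.71, adjusted p = 6.71e-05). PDGF-AB at passage 5 gave a difference of -0.02 (adjusted p = 0.901).

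Acan, which encodes the main proteoglycan of cartilage (chromosome 7, 79053226 to 79115099), stayed between 4.58 and 4.98 in the 12 arrays outside the last group. In treated small colonies at passage 15 it read 5.03, 5.37 and 5.27 (5.23 ± 0.174), above all the others. The rise over passages there was 0.32 (1.25-fold, adjusted p = 0.0113, and 0.0667 without passage 15 array 2). Against large colonies at passage 15 it was 1.36-fold higher (log2 0.45, adjusted p = 0.00094). The order of levels thus put treated small colonies at passage 15 first for both cartilage genes. The same group also came first for Cebpa (6.23) and Sp7 (4.51), where its step to the next group did not pass the test. Acan stayed below the median gene level in every group. With passage in treated small colonies, 6 of 11 endothelial markers were also higher and none lower (24.6% and 21.4% of all genes), with a median change of 0.25. In large colonies, where Sox9 rose, the Acan difference was -0.03 (95% interval -0.23 to 0.17, adjusted p = 0.843).

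**Figure D2:**
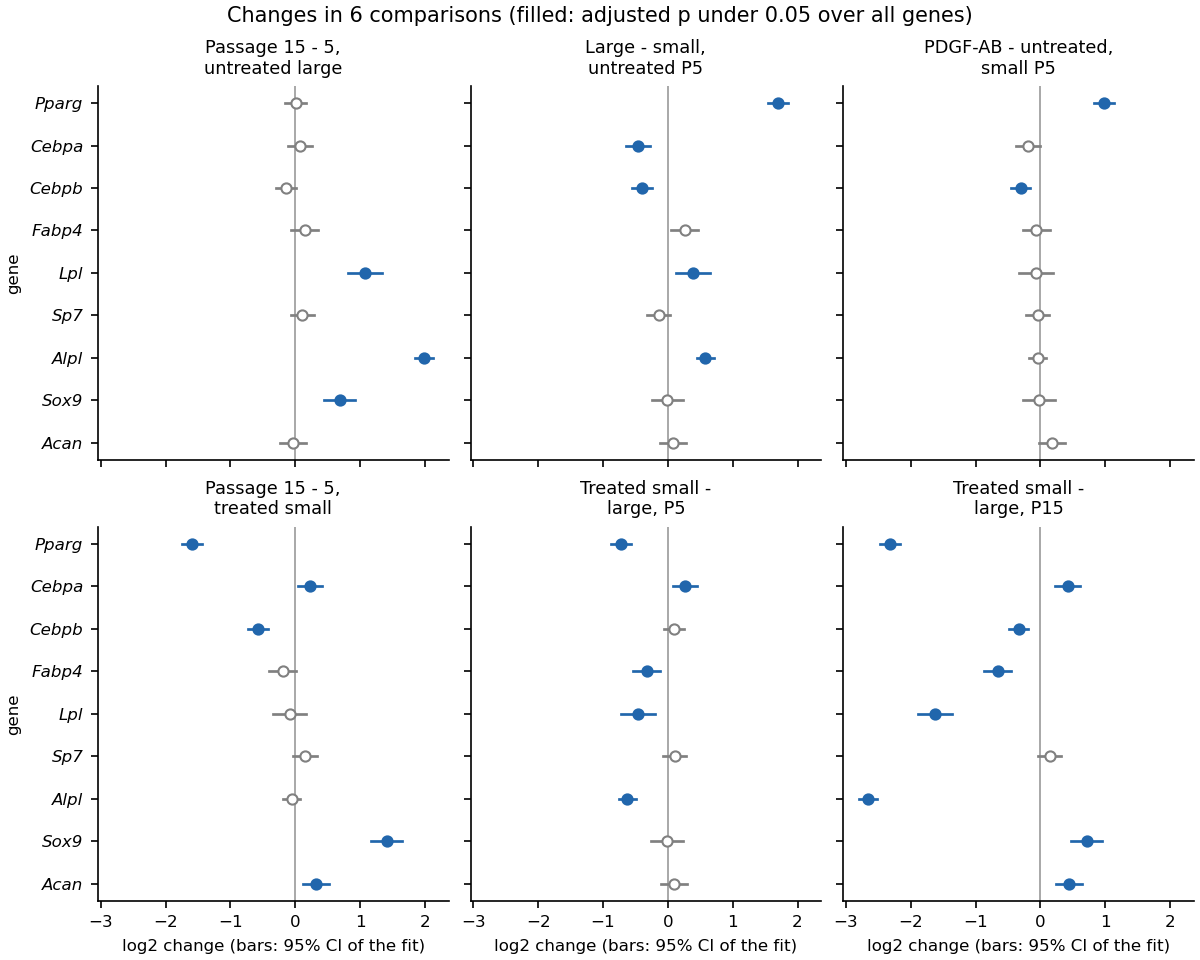
Log2 change (horizontal axis) of the 9 genes in the 6 comparisons of a pair of groups, 1 panel each, with bars for the 95% interval of the fit and filled points for an adjusted p under 0.05. The longest changes belong to Alpl (1.98 with passage in large colonies, -2.66 in treated small against large colonies at passage 15) and Pparg (-2.32 in the latter).

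Counted together, 3 of the 9 genes passed the test for passage in large colonies, against 36.1% of all genes (17.4% higher, 18.7% lower), and all 3 (Lpl, Alpl and Sox9) rose. In large against small untreated colonies 5 of 9 passed (36.2% of all genes, 18.2% higher and 18% lower), with Pparg, Lpl and Alpl higher in large colonies and Cebpa and Cebpb lower. PDGF-AB at passage 5 called 2 of 9 (28.9% of all genes, 10.7% higher and 18.2% lower), Pparg up and Cebpb down. Passage in treated small colonies called 5 of 9 (46% of all genes, 24.6% higher and 21.4% lower), with Cebpa, Sox9 and Acan up and Pparg and Cebpb down. At passage 5 treated small against large colonies called 5 of 9 (35.7% of all genes, 14.8% higher and 20.9% lower), with Cebpa higher and Pparg, Fabp4, Lpl and Alpl lower. At passage 15 it called 8 of 9 (53.4% of all genes, 29.2% higher and 24.2% lower), Sp7 being the exception. Shares called were large across the whole array, and with 9 genes the counts are read against them as a description. The median change of the 9 genes was 0.11 for passage in large colonies (all genes -0.042), -0.056 for passage in treated small colonies (all genes 0.051) and -0.34 for treated small against large colonies at passage 15 (all genes 0.069).

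Passage changes differed between treated small and untreated large colonies for 5 of the 9 genes, against 34.4% of all genes (18.6% higher, 15.9% lower), by the interaction term of the same model. Alpl and Lpl rose in large colonies, and their passage changes in treated small colonies, -0.06 and -0.09, did not pass the test. The differences of the changes were -2.04 for Alpl (SE 0.0905, adjusted p = 4.01e-11) and -1.17 for Lpl (SE 0.172, adjusted p = 6.12e-05). Pparg (-1.59, adjusted p = 4.43e-09) and Cebpb (-0.43, adjusted p = 0.00305) fell in treated small colonies, with changes in large colonies of 0.0040 and -0.14 that did not pass. Sox9 rose in both and rose further in treated small colonies, by 0.73 (adjusted p = 0.00223). The division genes rose in both, 9 of 9 each time, with median changes of 3.23 in large and 3.45 in treated small colonies. Endothelial markers gave 7 of 11 higher and none lower by the same interaction test, over a range of mean levels of 4.75 to 5.13, and their part in these results was not tested.

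**Figure D3:**
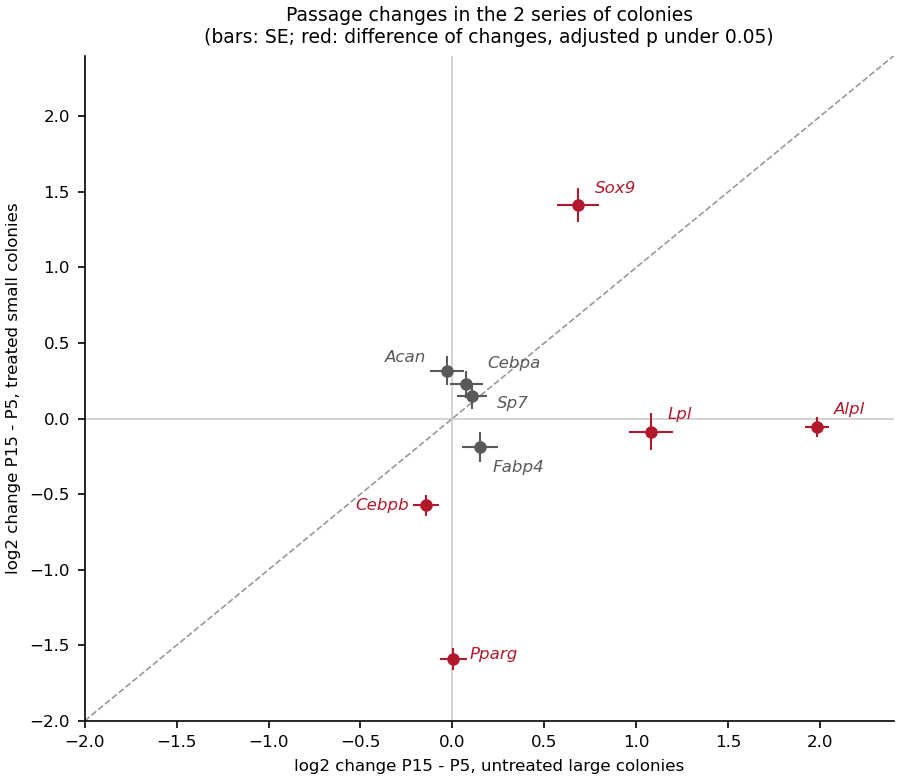
Log2 change from passage 5 to passage 15 in untreated large colonies (horizontal axis) and in treated small colonies (vertical axis), with SE bars, a dashed line of equal change, and red for genes whose changes differed at an adjusted p under 0.05. Alpl and Lpl lie far to the right at about 0 on the vertical axis, Pparg at about 0 on the horizontal axis and -1.59 on the vertical, and Sox9 above the line.

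Likeness to other genes was taken for the 4 members whose group means spanned at least 1. Among 1968 genes at or above the median level whose group means spanned at least 1, the Pearson correlation over the 15 arrays with Pparg was highest for Pde2a (0.991) and Ints6l (0.986). For Alpl it was highest for Gstt1 (0.980) and Rnf122 (0.980), and for Lpl for Gstt1 (0.970) and Alpl itself (0.968). For Sox9 it was highest for Dlk1 (0.969) and Casp2 (0.968). The 15 points share 5 groups, so these values describe likeness of group levels.

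Other genes of the fat lineage moved in both directions in every comparison. Of 24 measured, 5 rose and 5 fell with passage in large colonies, where the desaturase gene Scd1 rose by 1.14 (adjusted p = 4.58e-10) and the lipase gene Pnpla2 fell by 0.56. In large against small untreated colonies 5 were higher and 4 lower, among them Ebf1 at 1.04 and Ebf2 at -2.76, which encode factors active in fat precursors. Ebf2 stood at 5.13 in large and 7.89 in untreated small colonies, so the EBF genes ran in opposite directions. With PDGF-AB 3 rose and 4 fell, with Pnpla2 at 0.48 and the C/EBPδ gene Cebpd at -0.33. With passage in treated small colonies 7 rose and 7 fell, including Ebf1 at 1.08, Ebf2 at -2.04 and Cebpd at -0.65. Treated small against large colonies gave 2 higher and 2 lower at passage 5 and 6 and 6 at passage 15. Of the list 41.7%, 37.5%, 29.2%, 58.3%, 16.7% and 50% were called in the order of passage in large colonies, large against small, PDGF-AB, passage with PDGF-AB, and treated small against large colonies at passages 5 and 15, beside 36.1%, 36.2%, 28.9%, 46%, 35.7% and 53.4% of all genes. The median change of the list ran from -0.098 to 0.14 over the 7 comparisons, beside -0.042 to 0.073 for all genes. Adipoq, the adipokine gene of mature fat cells, was at 3.41 to 3.58 in the 5 groups, under the band of background, and was named after its values were seen.

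Of 18 measured bone genes, 2 rose and 4 fell with passage in large colonies, where Alpl rose. Among those that fell were Smpd3, a sphingomyelinase needed for bone mineral in mice, by 1.51, and Atf4, an osteoblast factor, by 0.72. In large against small untreated colonies 2 were higher and 5 lower, including Omd (osteomodulin) at -2.41 and Tnfrsf11b, which encodes the osteoclast inhibitor osteoprotegerin, at -1.33. PDGF-AB gave 3 higher and 6 lower, with Omd at -2.10 and Smpd3 at -1.12. At passage 5 Omd stood at 3.53 in large and 3.84 in treated small colonies. Both levels lie below the band of background, where the size of a change says little. Passage in treated small colonies gave 4 higher and 3 lower, with Tnfrsf11b at -1.52 and Phospho1, a phosphatase of mineral formation, at -1.10. At passage 5 treated small against large colonies gave 5 and 2. At passage 15 the counts were 9 higher and 3 lower, with Msx2 at -1.07 and Atf4 at 0.66, while Alpl was lower. Of the higher ones Phex (3.98 against 3.40), Omd (4.32 against 3.87) and Ibsp were at about background. In the same order 33.3%, 38.9%, 50%, 38.9%, 38.9% and 66.7% of the list were called, beside the shares of all genes given for the fat list. The bone matrix gene Ibsp was at 3.42 to 3.69 in all groups. Ibsp and Phex were also named after their values were seen.

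Cartilage genes, like the bone list and all genes, were called most often at passage 15. There 13 of 24 cartilage genes were higher and 3 lower in treated small than in large colonies. Their median difference was 0.25, beside 0.069 for all genes. The split of all calls in this comparison depended on the scaling, as given below. In the same comparison the endothelial list had a median of 0.28, with 8 of 11 higher and none lower (29.2% and 24.2% of all genes). Medians of the Schwann, cardiomyocyte, macrophage and mural lists were 0.26, 0.15, 0.080 and 0.032. Among the cartilage genes Col11a1, Chst11, Col2a1 and Col10a1 differed by 1.45, -1.11, 0.86 and -0.86. The collagen of type II, from Col2a1, is the main collagen of cartilage, and that of type X marks cartilage cells that have stopped dividing. Passage in treated small colonies gave 8 higher and 4 lower, with the proteoglycan genes Vcan at 1.84 and Prg4 at 1.21. In large colonies it gave 3 higher and 1 lower, led by Vcan at 3.50 (adjusted p = 1.86e-14), which stood at 6.54 at passage 5 and 10.04 at passage 15. Matn2, a matrix linker gene, rose by 1.73 there. It was lower in large than in small untreated colonies at passage 5 (-3.10), where 2 genes of the list were higher and 7 lower. PDGF-AB gave 2 and 5, with Matn2 at -0.85 and Vcan at -0.52, and treated small against large colonies at passage 5 gave 7 and 2. In the same order 16.7%, 37.5%, 29.2%, 50%, 37.5% and 66.7% of the list were called, beside the shares of all genes given for the fat list. Versican and matrilin-2 are found in many connective tissues and not in cartilage alone.

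**Figure D4:**
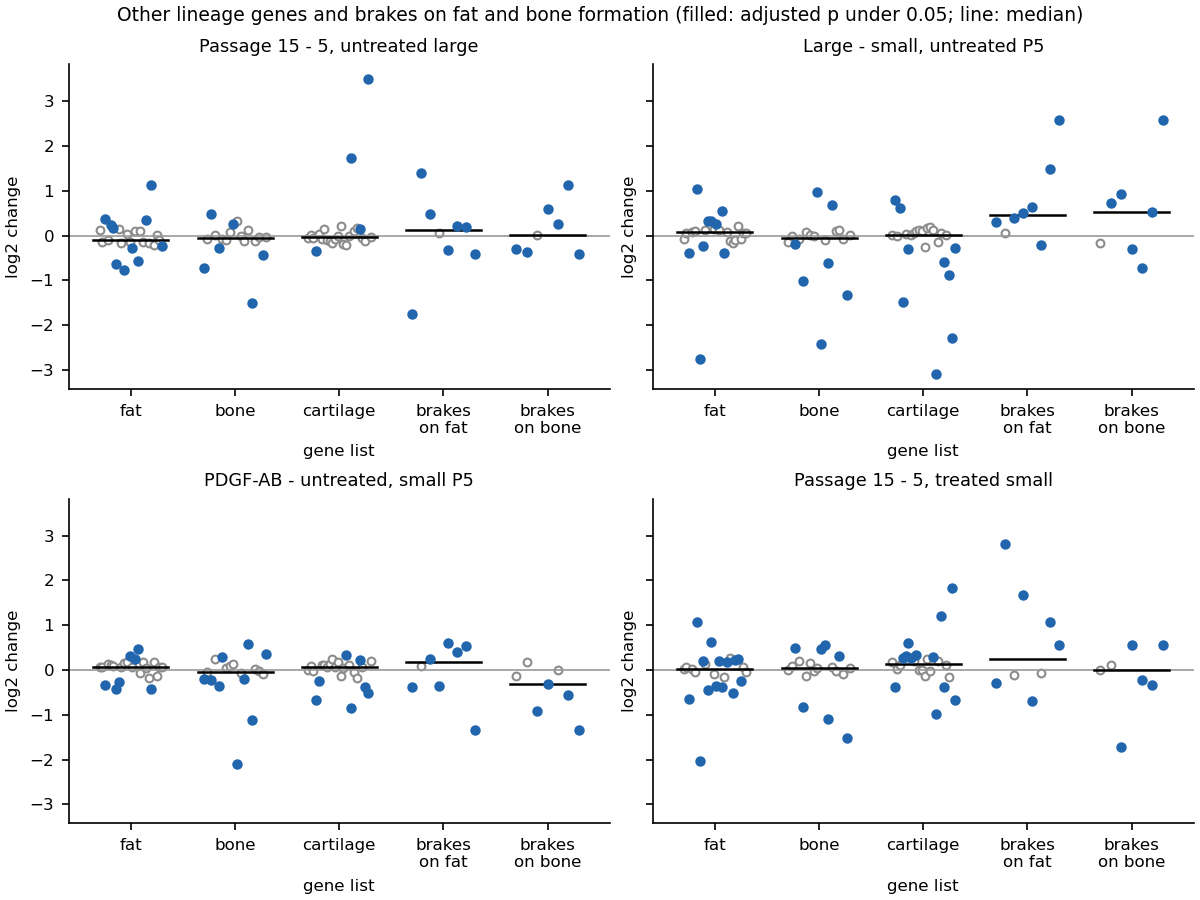
Log2 change of each measured gene in the lists of fat, bone and cartilage genes and of factors that hold fat and bone formation back (brakes), in 4 comparisons, with filled points for an adjusted p under 0.05 and black lines for list medians. Filled points lie on both sides of 0 in the fat, bone and cartilage lists of every panel, and the highest is Vcan at 3.50 with passage in large colonies.

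The split of calls between higher and lower moved with the scaling between arrays, by over 10 percentage points in 3 comparisons. With array medians centred, the share of all calls that were higher moved from 53.6% to 41.7% for passage in treated small colonies, from 54.6% to 36.5% for treated small against large colonies at passage 15 (42.6% with cyclic loess), and from 53.9% to 39.0% for the difference of passage changes (43.5% with loess). Smaller shifts occurred in the other comparisons, such as from 37.1% to 27.6% for PDGF-AB with medians centred. No scaling moved the median of all genes by over 0.1, and no called change of the 9 genes turned its direction under any of them.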

How the data were processed

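RNA of 15 samples was measured on Affymetrix arrays, 1 array per sample, from 100 ng of total RNA per the labels' protocols. The deposited values are log2 intensities of 28853 probe sets, as the authors made them. RMA and limma appear in the submitters' processing notes without a version or a stated role, and background settings are not given in the sources used here. Array medians lay between 5.59 and 5.72. With 3 arrays a group, their number sets the precision. The labels mention the inhibitor AG1296, but no sample is labelled with it.

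Per the platform annotation 21789 probe sets name 1 gene. Of several for a gene, the one with the highest mean over 15 arrays was kept, which left 19938 genes, and 19855 of these matched RefSeq GRCm38.p6 by identifier. Groups came from the labels. limma 3.58.1 in R 4.3.3 fitted 5 group means over all 15 arrays (10 residual and 5.80 prior degrees of freedom), with 2-sided moderated tests and Benjamini-Hochberg adjustment over 19938 genes at 0.05. The steps were tested on simulated data. Arrays of the same replicate number were checked for pairing by the correlation of their deviations from group means, which was under 0.1 for at least 1 number in every comparison.

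The 10 genes and the related lists (154 genes, 143 measured) were chosen with earlier results of these data known. Named were all members, up to 4 genes per list with the smallest adjusted p among those called whose arrays did not overlap, markers at or above the median level over all arrays, with some below it to define a cell type, and the 2 genes most like each member with a range of at least 1. Alternatives were median centring, cyclic loess, dim genes left out, all probe sets, means over probe sets, only the compared arrays, trended and robust variance, array weights, a replicate block, at least 2-fold, and each array left out in turn.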

Additional observations from a re-analysis of the deposited data

Results flagged for a closer look

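Passage changes of 5 genes differed between PDGF-AB-treated small colonies and untreated large colonies by the interaction term of the limma model. Alpl, the alkaline phosphatase gene, rose by 1.98 in large colonies and changed by -0.06 in treated small ones, a difference of -2.04 (SE 0.0905, adjusted p = 4.01e-11). Pparg, the fat cell receptor gene, changed by 0.0040 and -1.59, a difference of -1.59 (SE 0.103, adjusted p = 4.43e-09). Lpl changed by 1.08 and -0.09, a difference of -1.17 (SE 0.172, adjusted p = 6.12e-05). For Sox9 the changes were 0.68 and 1.41, a difference of 0.73 (SE 0.160, adjusted p = 0.00223). For Cebpb they were -0.14 and -0.57, a difference of -0.43 (SE 0.0990, adjusted p = 0.00305). Colony size and PDGF-AB cannot be told apart in these differences.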

How the results depend on the processing

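Of 63 changes (9 genes in 7 comparisons) 33 were called. Under up to 24 alternatives, 15 of which left out 1 array, 28 of the 33 kept their call and direction, 5 lost the call in some and 0 turned. Of the 30 uncalled changes, 6 were called under some alternative and 10 changed sign. A minimum of 2-fold left 751, 783, 278, 1049, 726, 925 and 844 genes called in the 7 comparisons (in the order of passage in large colonies, large against small, PDGF-AB, passage with PDGF-AB, treated small against large at passages 5 and 15, and the difference of passage changes), against 7196, 7216, 5772, 9169, 7110, 10637 and 6865. It left 7, 10, 3, 10, 10, 8 and 12 list genes against 32, 37, 33, 43, 29, 51 and 41. Of the members it left 1, 0, 2, 0, 3 and 3 in the last 6 comparisons. Where it left 0, limma called 2 and 5 without it, and 3 and 5 had an unadjusted p under 0.05. Leaving out genes below the median level, which removes 5 of the 9 members, left 3 members for large against small colonies, 3 for passage in treated small colonies, and 2 and 4 for treated small against large colonies at passages 5 and 15, with 6829 genes called in the last.

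With 1 array left out the genes called ranged over 6388 to 7253, 6244 to 7234, 4461 to 5935, 8057 to 9355, 6297 to 7122, 8982 to 10797 and 5756 to 7229 in the same order, the list genes over 24 to 33, 34 to 43, 27 to 34, 37 to 45, 26 to 31, 46 to 52 and 35 to 44, and the members over 3 to 3, 4 to 7, 2 to 3, 3 to 5, 3 to 5, 8 to 8 and 5 to 7. Steps called in the orders of levels ranged from 11 to 14 against 12 of 36. Fabp4 in large against small colonies (adjusted p = 0.0501) was called under 8 alternatives, most clearly without large-colony passage 5 array 2 (0.0143), and its difference of passage changes under 5, such as without large-colony array 1 (0.0225). Acan's difference of passage changes was called under 7, such as without treated passage 15 array 1 (0.0146), and Sp7 in large against small colonies without large-colony array 2 (0.0250). Cebpa was called for PDGF-AB (0.0246) and for the difference of passage changes (0.0215) without large-colony passage 5 array 1.

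Signs of uncalled changes turned with cyclic loess for Acan in passage in large colonies (0.034), Sox9 in the passage 5 comparisons (0.0043, 0.0082 and 0.0039) and Sp7 at passage 15 (-0.028) and in the difference of passage changes (-0.10, or -0.027 with medians centred). Leaving out 1 array also turned signs, with ranges of -0.0078 to 0.015 for Pparg, -0.058 to 0.15 for Cebpa and -0.090 to 0.056 for Acan in passage in large colonies, -0.091 to 0.037 for Sox9 and -0.0088 to 0.15 for Acan in large against small colonies, -0.093 to 0.0043 for Alpl and -0.093 to 0.026 for Sox9 with PDGF-AB, -0.078 to 0.068 for Sox9 in treated small against large colonies at passage 5, and -0.056 to 0.11 for Sp7 in the difference of passage changes. The cause was not tested.

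Replicate numbers were not shown to pair arrays. In passage in large colonies the correlations of same-numbered arrays were 0.208, 0.0984 and 0.202, and 6 of 6 arrays correlated best with their own number, a hint from the data. With a replicate block Fabp4 in large against small colonies (adjusted p = 0.0440) and Acan in the difference of passage changes (0.0461) became called, and no other call of the 9 genes changed. Levels near background limit Fabp4, Lpl in small colonies and Sp7.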

Other observations

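Factors known to hold fat or bone formation back numbered 14 measured genes, with Zfp521 counted in both the fat and the bone list. In large against small untreated colonies at passage 5, 6 of 8 fat brakes were higher and 1 lower, and the list's median change was 0.46 beside 0.031 for all genes, of which 36.2% were called. Zfp521, a zinc finger factor that restrains both lineages in mice, was higher by 2.59 in large colonies, where it stood at 8.42 against 5.82 in untreated small colonies. With PDGF-AB it fell by 1.33 to 4.49, while the nuclear receptor gene Nr2f2 rose by 0.55. In untreated large colonies at passage 15 it was at 8.00 and in treated small ones at 5.06. Pparg and Zfp521 were thus both higher in large colonies, and PDGF-AB moved them in opposite directions.

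Dlk1, which encodes a membrane protein that keeps fat precursors undifferentiated, rose with passage in both kinds of colony, by 1.40 in large and 2.81 in treated small colonies. It stood at 6.38 to 6.48 in the 3 passage 5 groups, 7.86 in large colonies at passage 15 and 9.29 in treated small colonies at passage 15. Gata3, another brake on fat precursors, rose by 1.68 with passage in treated small colonies. The stress factor gene Ddit3 fell by 1.75 with passage in large colonies.

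Among bone brakes, Mgp, which encodes matrix Gla protein, an inhibitor of calcification, was at 11.65 and 11.66 in large colonies at passages 5 and 15. It was at 10.71 in untreated small colonies, fell by 0.92 with PDGF-AB and by a further 1.73 with passage, to 8.07. Twist2, which encodes a factor that restrains RUNX2, rose by 1.14 with passage in large colonies to 9.37, and in treated small colonies it fell by 0.35 to 6.79. PDGF-AB at passage 5 called 4 of 7 bone brakes, each lower, beside 18.2% of all genes lower and 10.7% higher. At passage 15, 3 of the 7 bone brakes were lower in treated small than in large colonies and 2 higher (24.2% and 29.2% of all genes). The lower ones were Mgp at -3.59, Zfp521 at -2.94 and Twist2 at -2.58, and the higher ones Hdac4 at 0.33 and Twist1 at 0.24. Alpl was at -2.66 in the same comparison.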
